A study of Mus musculus with 6 samples.

Results

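The target clusters that name miR-125a-5p or miR-125b-5p were described in AGO2 chimeric eCLIP libraries from mouse brain, an assay in which the miRNA is ligated to the RNA held with it in AGO2, so that a read names both. Members were the coordinates listed under either miRNA, and a coordinate listed under both was counted once. They made up 1382 of the 18029 WT target clusters and, for *Mov10* Deletion, 1823 of 27152 in replicate 1 and 783 of 12379 in replicate 2, in all 3794 distinct coordinates of 53496. The brains were whole C57Bl/6J brains at postnatal day 0 (P0), and each IP had a size-matched input. The *Mov10* Deletion mouse carries a floxed *Mov10*, cut by *Emx1*-Cre, which acts in excitatory cells of neocortex and hippocampus, together with a heterozygous *Mov10* mutant allele, so other cells of the brain keep the floxed allele uncut. WT was 1 library, so the genotypes were compared without a test, intervals cover counting error only, and the spread between *Mov10* Deletion replicates is the only replicate error at hand.

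AGO2 carries a miRNA and presents its seed, the nucleotides near the 5′ end, for pairing with a target RNA, most often in a 3′UTR. miR-125a and miR-125b are the mammalian relatives of lin-4, the founding miRNA of the nematode, and are abundant in brain, where they rise as neural precursors differentiate. The *Lin28* genes, whose proteins block maturation of let-7, are among their best known targets. MOV10 is an RNA helicase that binds AGO2 and FMRP.

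Both miRNAs share a seed, nucleotides 2 to 8, and are identical over their first 13 nucleotides, so a match to the seed cannot tell them apart. The mature sequences are those of RefSeq for GRCm38.p6, and capitals mark the seed.
miR-125a-5p: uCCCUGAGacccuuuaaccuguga
miR-125b-5p: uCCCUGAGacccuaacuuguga
miR-125a-5p comes from *Mir125a* on chromosome 17, and miR-125b-5p from *Mir125b-1* on chromosome 9 and *Mir125b-2* on chromosome 16.

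To show what the clusters hold, 29 nt around the match are printed for 15 sites from the genes with the highest scores, from reported targets and from genes listed in 1 genotype. Capitals mark the motif counted at the site, with an A opposite nucleotide 1 of the miRNA included where it directly follows the motif. Letters next to the capitals can pair too, such as a t before CTCAGGG with nucleotide 9, so some sites also match nucleotides 3 to 9. The sequences and their coordinates are those of GRCm39 and read 5′ to 3′ on the strand of the gene. The first 6 hold the full seed match followed by A.
Vash1 coding sequence (chr12:86735722-86735750, plus strand): ttcaagacctatttCTCAGGGAactactt
Ank2 coding sequence (chr3:126728193-126728221, minus strand): gttcaacaagatttCTCAGGGAaaacgca
Zfp281 coding sequence (chr1:136553686-136553714, plus strand): gccaaagccagaatCTCAGGGAatcaaag
Ist1 3′UTR (chr8:110398467-110398495, minus strand): agttttactggattCTCAGGGAgccctct
Cpsf6 3′UTR (chr10:117184893-117184921, minus strand): tttgatgtttacacCTCAGGGAaaggctt
Mcl1 3′UTR (chr3:95570278-95570306, plus strand): tgtcttacacgtctCTCAGGGAaaaaaca
The next 5 hold the seed match without the A, or the shorter match to nucleotides 2 to 7 followed by A in *Sox11*.
Arfgef3 3′UTR (chr10:18464365-18464393, minus strand): ttggtgagcatacttCTCAGGGgaggggc
Nova1 intron (chr12:46754815-46754843, minus strand): cacatcacatggtcaCTCAGGGcattcac
Numa1 3′UTR (chr7:101663988-101664016, plus strand): agataggttctggatCTCAGGGgtgagat
Trp53inp1 3′UTR (chr4:11170333-11170361, plus strand): aagcaaaaatctattCTCAGGGtcagcca
Sox11 3′UTR (chr12:27387353-27387381, minus strand): ttgtttattacagttTCAGGGAaggtttt
The match in *Bach2*, *Klf13* and *Trip12* was shifted by 1 nt, to nucleotides 3 to 9, while *Lin28b* held the full match followed by A.
Bach2 3′UTR (chr4:32580639-32580667, plus strand): atgtcacaaaccctaTCTCAGGaatttct
Klf13 3′UTR (chr7:63539140-63539168, minus strand): tgaacacatttcatgTCTCAGGaattcac
Trip12 coding sequence (chr1:84709790-84709818, minus strand): ttttatgcacttgttTCTCAGGaactaca
Lin28b 3′UTR (chr10:45254887-45254915, minus strand): gacaaagaactttgCTCAGGGAacatacc

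The members were mostly miR-125b-5p clusters. In WT 1354 coordinates named miR-125b-5p and 72 named miR-125a-5p, 44 of them both. The *Mov10* Deletion libraries listed 1695 and 163 in replicate 1, with 35 under both, and 742 and 52 in replicate 2, with 11 under both. A coordinate can also name unrelated miRNAs. Of the WT members, 1011 (73.2%) named no other miRNA, against 1561 (85.6%) and 693 (88.5%) in *Mov10* Deletion replicates 1 and 2. The miRNA most often named with them was miR-124-3p, at 230 WT coordinates and at 138 and 52 in *Mov10* Deletion.

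The share of target clusters that named miR-125 was 7.67% in WT, with an exact 95% interval of 7.28 to 8.06. Of the *Mov10* Deletion libraries, replicate 1 gave 6.71% (6.42 to 7.02) and replicate 2 gave 6.33% (5.90 to 6.77). The WT value was above both *Mov10* Deletion values. Shares were also taken over coordinates that name 1 miRNA, with miR-125a-5p and miR-125b-5p counted as 1 and no other relatives joined. They were 6.38% (6.00 to 6.77), 6.20% (5.90 to 6.5) and 5.90% (5.48 to 6.34), and the intervals overlapped. Member clusters had a median width of 74 nt in WT and 63 nt in each *Mov10* Deletion library. The deposited score, whose meaning the paper does not give and which was at least 3 throughout, had a median of 4.56 in WT and 4.0 in both *Mov10* Deletion libraries, and 164, 118 and 37 members scored 10 or more. The total number of reads of each library is unknown, so the list lengths were not compared.

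The tissue was checked by AGO2 clusters in marker genes. All 8 neuronal markers, among them *Map2*, *Dcx* and *Snap25*, held AGO2 clusters in every library. No library held any in the 3 muscle markers. Of the 4 liver and 3 erythroid markers 1 and 2 held some, never over 4 in a gene. Neuronal markers held 4 to 376 clusters a gene in WT and 7 to 676 in each *Mov10* Deletion library, so the lowest came close to these. A small number of members lay in *Rn18s-rs5*, a ribosomal RNA pseudogene locus, where 16 of 17 WT target clusters and 18 of 20 and 13 of 20 in *Mov10* Deletion named miR-125 together with many other miRNAs (8 to 50 miRNAs a coordinate in WT). The highest score of each library, 214, 93.3 and 41.0, was there. This locus was left out of the genes described below, and counts without it stand in the closing section.

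Members held the letters that pair with miR-125 far more often than target clusters of other miRNAs. The 6 motifs searched, on the strand of the cluster only, were CTCAGGGA (nucleotides 2 to 8 followed by A), CTCAGGG (2 to 8), TCAGGGA (2 to 7 followed by A), TCTCAGG (3 to 9), TCAGGG (2 to 7) and CTCAGG (3 to 8), which overlap each other. Any of them lay inside 800 of the 1277 WT members that could be placed on a genome sequence (62.6%, 59.9 to 65.3), against 536 of 15324 clusters of other miRNAs (3.50%). In *Mov10* Deletion replicate 1 the shares were 45.7% (43.3 to 48.2) and 3.72%, and in replicate 2 they were 45.5% (41.8 to 49.2) and 4.04%. The WT share was above both *Mov10* Deletion shares, which lay within each other's interval.

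The full seed match CTCAGGG was inside 26.2% of WT members (23.8 to 28.7), 18.6% (16.7 to 20.5) and 19.1% (16.3 to 22.1) of *Mov10* Deletion members, and under 1% of clusters of other miRNAs (0.711%, 0.761% and 0.926%). The shifted match TCTCAGG was at least as frequent, in 30.8% of WT members and in 20.4% and 21.8% of *Mov10* Deletion members. Read along miR-125b-5p in stretches of 6 nt, the share of members with a match peaked at nucleotides 3 to 8, with 54.6% in WT and 39.9% and 40.2% in *Mov10* Deletion, and was higher there than at nucleotides 2 to 7 (35.2%, 25.2% and 24.9%). From nucleotides 6 to 11 onward no stretch was matched in more than 2.75% of members of any library. No 3′ stretch came near the shares at the seed in this count, which required 6 unbroken pairs. Some were above those of clusters of other miRNAs in each library. At nucleotides 11 to 16 members had 2.19% in WT and 1.73% and 1.79% in *Mov10* Deletion, against 0.894%, 0.838% and 0.982%. At nucleotides 17 to 22 they had 2.43%, 2.38% and 1.51%, against 2.34%, 1.95% and 1.94%. Whether these differences reflect pairing was not tested.

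**Figure D1:**
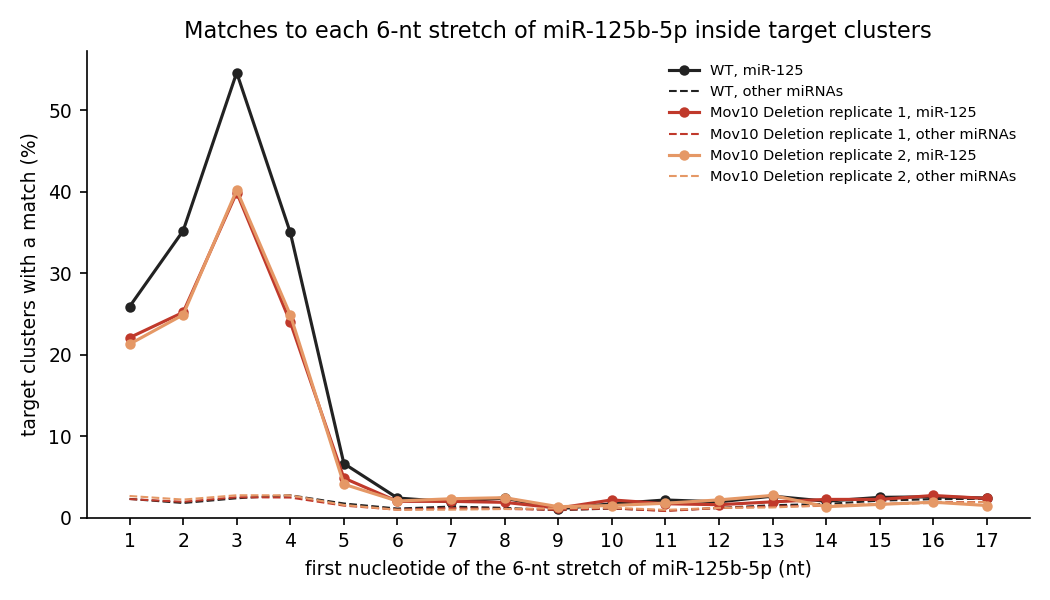
Share of placed target clusters (y axis, percent) that hold a match to each 6-nt stretch of miR-125b-5p, by the first nucleotide of the stretch (x axis, nt), for members (solid lines) and target clusters of other miRNAs (dashed lines) in the 3 libraries. Members peak at the stretch from nucleotide 3, at 54.6% in WT and about 40% in *Mov10* Deletion (39.9% and 40.2%), and are at or under 2.75% from nucleotide 6 on.

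The matches sat near the middle of the clusters. Where CTCAGGG lay in a member or within 60 nt of it, the centre of the match nearest to the cluster centre was within 20 nt of that centre in 271 of 352 WT members (77.0%), 268 of 358 members of *Mov10* Deletion replicate 1 (74.9%) and 114 of 158 of replicate 2 (72.2%). The median offset was 5.25 nt upstream of the cluster centre in WT and in *Mov10* Deletion replicate 2 (-5.25 nt in each) and -4.0 nt in replicate 1.

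**Figure D2:**
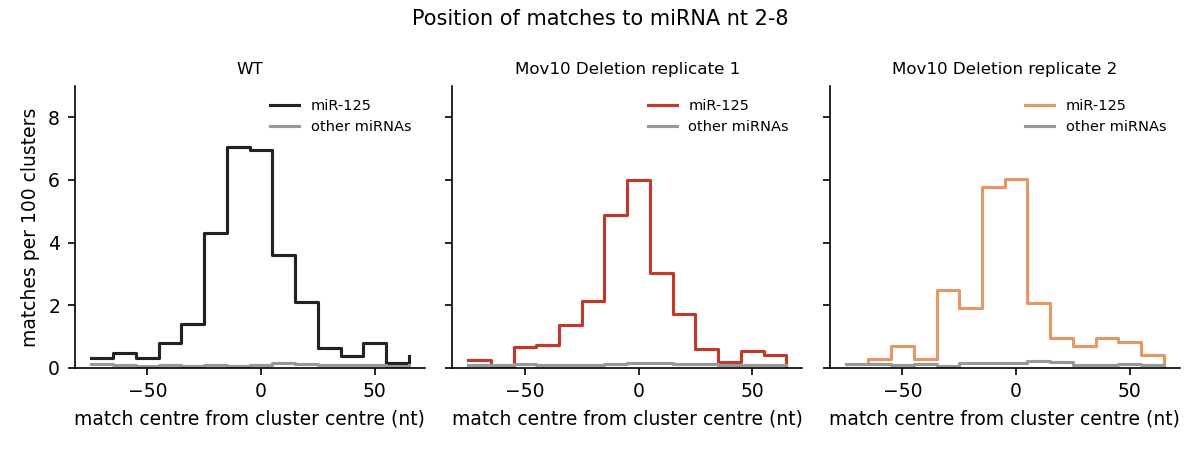
Matches to miRNA nucleotides 2 to 8 per 100 placed clusters (y axis) by distance of the match centre from the cluster centre (x axis, nt, 10-nt bins, negative values upstream), counted in the cluster and 60 nt to either side. Members (coloured) peak within 20 nt of the centre in all 3 libraries, while target clusters of other miRNAs (grey) stay near 0 at every distance.

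A higher score went with more matches. Among WT members with a score under 4, 52.6% (266 of 506) held any of the 6 motifs, and among those with a score of 10 or more 75.3% (116 of 154) did. The same shares were 40.5% and 69.4% in *Mov10* Deletion replicate 1, while replicate 2 had 39.1% and, for 21 of 35 members, 60%. Members that named miR-125a-5p held a match in 60.3% (47.7 to 72.0) of WT clusters, near the 63% (60.3 to 65.7) of those that named miR-125b-5p.

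Lower match shares in the *Mov10* Deletion libraries were not particular to miR-125. Clusters of miR-9-5p held its own seed match ACCAAAG in 33.6% (31.5 to 35.8) in WT and in 23.5% and 25% in *Mov10* Deletion, and clusters of let-7c-5p held CTACCTC in 56.6% (52.8 to 60.3) in WT and in 34.6% and 36.1%. Clusters were also wider in WT, with a median of 78 nt over all target clusters against 66 and 68 nt, and the part of width in these shares was not tested.

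The gene features under the members differed between the libraries more than between the *Mov10* Deletion replicates. In WT 50.6% of placed members lay in a 3′UTR (47.8 to 53.4), 28.9% in coding sequence and 14.7% in an intron (12.8 to 16.8). In *Mov10* Deletion replicate 1, 35.7% lay in a 3′UTR (33.4 to 38.0), 26.1% in coding sequence and 31.9% in an intron (29.7 to 34.2), and in replicate 2 36.0% (32.5 to 39.6), 28.7% and 27.6% (24.4 to 31.0) did. Introns thus held about 2 times the WT share in both *Mov10* Deletion libraries. Over all target clusters the intron share moved the same way, from 37.0% in WT to 45.3% and 42.5%. In each library members lay less often in introns and more often in coding sequence than target clusters as a whole, of which 20.3%, 20.5% and 21.5% were in coding sequence.

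**Figure D3:**
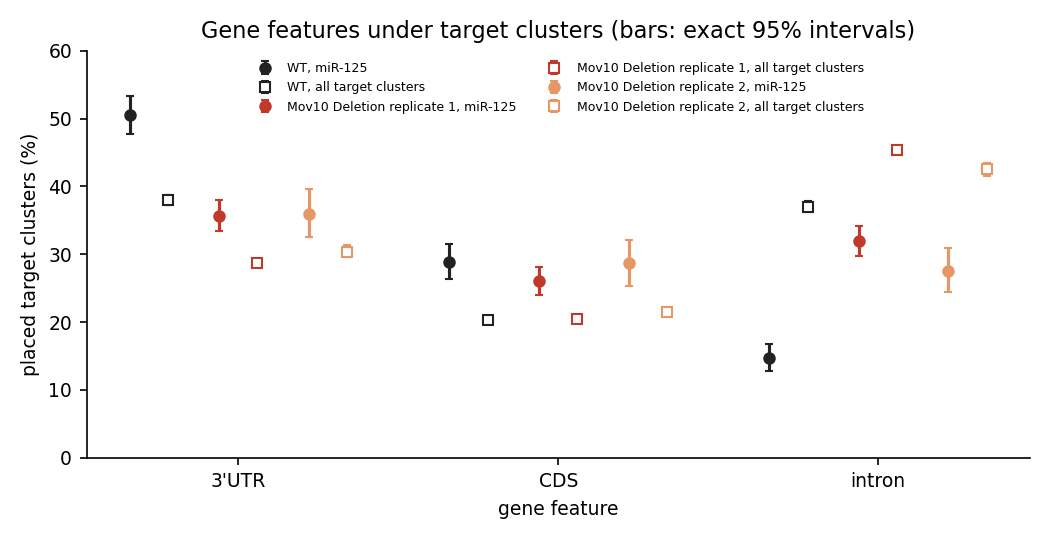
Share of placed target clusters in 3′UTR, coding sequence (CDS) and intron (y axis, percent) in each library, for members (filled circles) and all target clusters (open squares), with exact 95% intervals. Members in introns rise from 14.7% in WT to 31.9% and 27.6% in the *Mov10* Deletion libraries, and members in 3′UTRs are at 50.6%, 35.7% and 36.0%.

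The intronic members of *Mov10* Deletion were rarely those of WT. Of the members of replicate 1 that overlapped a WT member, 4.59% (19 of 414) were intronic, against 40.9% (518 of 1267) of the others, and in replicate 2 the values were 9.13% (19 of 208) and 35.0% (182 of 520). Members not found in WT also had lower scores, with a median of 3.94 against 5.84 in replicate 1 and 3.88 against 5.0 in replicate 2.
In WT introns 60.1% (113 of 188) of members held a motif, close to the 63.3% in 3′UTRs and 67.2% in coding sequence. In *Mov10* Deletion introns 37.6% (202 of 537) and 41.3% (83 of 201) did, against 52.3% and 58.4% in 3′UTRs.

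Measured from the annotated end of the RefSeq gene, 21.3% of WT members (19.2 to 23.6), 14.4% (12.8 to 16.1) and 15.1% (12.6 to 17.8) of *Mov10* Deletion members had their midpoint in the last 1000 nt. Over all target clusters these shares were 17.4%, 13.0% and 14.3%. Nearly all members lay in a gene on the same strand (97.1%, 97.4% and 97.4%).

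Few members recurred between libraries. Of the WT members, 442 (32.0%, 29.5 to 34.5) overlapped a member of *Mov10* Deletion replicate 1 and 226 (16.4%) one of replicate 2. Of the members of replicate 2, 28.7% (25.6 to 32.0) overlapped a WT member and 24.8% (194 of 783) a member of replicate 1, so libraries of the same genotype shared no larger part of this list than libraries of different genotypes. Clusters of all other miRNAs, compared miRNA by miRNA, gave 31.9% and 28.4%, and miR-124-3p gave 46.9% and 41.6%. The 194 members shared by the *Mov10* Deletion replicates had identical coordinates, while no WT member had the coordinates of a *Mov10* Deletion member. Whether clusters of the *Mov10* Deletion libraries were called together is not stated in the sources used here, so their overlap was not taken as that of independently placed clusters.

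Merged over the libraries where they overlapped, the members formed 3255 sites, and clusters that only adjoin counted as separate sites. Of these, 145 (4.45%) were listed in all 3 libraries, 347 in WT and 1 *Mov10* Deletion library, 872 (26.8%) in WT only and 39 (1.2%) in both *Mov10* Deletion libraries but not WT, while 1333 and 519 were listed in replicate 1 or 2 alone. The sites of other miRNAs were spread alike, with 5.77% in all 3 libraries, 25.2% in WT only and 1.12% in both *Mov10* Deletion libraries but not WT. Recurrence went with the seed match. A merged site counted as holding a match where any of its clusters did, so sites in more libraries had more clusters searched. By cluster, members also in another library held a match in 71.1% (WT) and in 66.4% and 69.7% (*Mov10* Deletion). For members in no other library it was 57.7%, 38.2% and 33.3%. Any of the 6 motifs was in 78.8% (70.8 to 85.4) of the sites listed in all 3 libraries, 57.7% (54.3 to 61.2) of those in WT only, 52.8% (35.5 to 69.6) of those in both *Mov10* Deletion libraries but not WT, and 38.2% (35.5 to 41.0) and 33.3% (29.1 to 37.7) of those in 1 *Mov10* Deletion library. A site seen in WT alone thus held a match more often than a site seen in a single *Mov10* Deletion library.

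**Figure D4:**
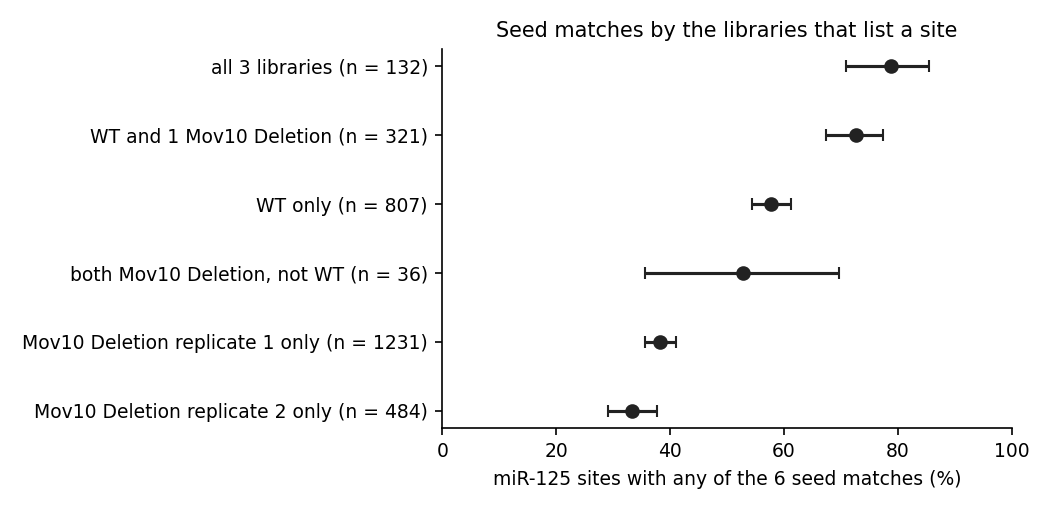
Share of placed miR-125 sites that hold any of the 6 seed matches in any of their clusters (x axis, percent, with exact 95% intervals) by the libraries that list the site (y axis, n = placed sites). The share is 78.8% for sites in all 3 libraries, 57.7% for WT alone and 38.2% and 33.3% for a single *Mov10* Deletion library.

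Target clusters can be set beside the AGO2 clusters of the same library, for which the log2 of IP over input was deposited. Of the WT members, 73.0% overlapped an AGO2 cluster, and 263 of 1382 (19.0%, 17.0 to 21.2) overlapped an enriched one, where both the log2 and the −log10 p reached 3, against 15.0% of all WT target clusters. In *Mov10* Deletion replicate 1, 270 members (14.8%, 13.2 to 16.5) did, against 11.7% of all, and in replicate 2 it was 89 (11.4%, 9.23 to 13.8) against 12.0%. The WT share was above both *Mov10* Deletion shares, for members as for all target clusters, and the intervals of the replicates overlapped only narrowly. Members in replicate 2 were not above its target clusters as a whole. Within 3′UTRs the shares were 27.6% in WT and 27.5% and 18.3% in *Mov10* Deletion, against 25.3%, 24.5% and 23.8% of all target clusters in 3′UTRs. Within introns they were 9.04%, 4.10% and 4.98%, against 8.26%, 5.13% and 5.36%. Within a feature, members thus lay close to target clusters as a whole, except for the lower 3′UTR value of replicate 2, whose interval of 13.8 to 23.5 ended just below the value of all target clusters.

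AGO2 signal at the member sites was similar in both genotypes. At the 1399 sites with an AGO2 cluster in all 3 libraries, the median log2 of IP over input was 1.99 in WT and 2.18 and 1.95 in *Mov10* Deletion. The *Mov10* Deletion value minus the WT value at the same site had a median of 0.14 in replicate 1 and -0.03 in replicate 2 (1399 and 1400 sites), with 90% of sites between -1.75 and 2.10 and between -2.27 and 2.08. At sites of other miRNAs the medians were 0.07 and -0.09. The replicates fell on either side of 0 for both. At the sites listed as targets in WT only, an AGO2 cluster was present at 65.4% of sites in WT and at 65.8% in each *Mov10* Deletion library. At the 474 of them with a cluster in every library the median log2 was 2.08, 2.21 and 2.13, and 13.0%, 18.3% and 13.5% of all these sites were on an enriched cluster. Sites of other miRNAs listed only in WT were alike, with an AGO2 cluster at 64.3%, 63.8% and 63.7% and an enriched one at 14.3%, 16.1% and 12.9%, so nothing here was particular to miR-125. Both *Mov10* Deletion libraries had an AGO2 cluster at 574 of the miR-125 sites, and since they may share 1 set of AGO2 clusters, presence in both was not counted as 2 observations.

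The miR-125 hairpins themselves were strongly enriched in AGO2. The highest log2 of IP over input on *Mir125a* (chr17:17830812-17830879, plus strand, mm10) was 8.21 in WT and 8.52 and 10.24 in *Mov10* Deletion. On *Mir125b-1* (chr9:41581926-41582002, plus strand) it was 4.25, 5.69 and 7.46, and on *Mir125b-2* (chr16:77646273-77646343, plus strand) 6.15, 7.79 and 8.28. Both *Mov10* Deletion values were above the WT value at each of the 3 loci, and at *Mir125a* and *Mir125b-1* the replicates differed from each other by more than replicate 1 differed from WT. The mature sequence of the latter pair is the same, so reads of miR-125b-5p cannot be divided between them.

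Members lay in 1118 genes in WT and in 1410 and 665 genes in the *Mov10* Deletion libraries, which was 17.5%, 18.2% and 12.3% of the genes with a target cluster of any miRNA. Of the 2291 genes with a member in any library, 197 (8.60%) had one in all 3 libraries, 509 (22.2%) in WT only and 96 (4.19%) in both *Mov10* Deletion libraries but not WT. Over genes with a target cluster of any miRNA the same patterns took 39.9%, 7.79% and 6.62%, counts that rest on many more clusters a gene. Most genes had 1 member (954, 1136 and 585 genes), and 36, 63 and 10 had 3 or more. The gene with most members was *Sox11* in WT, with 9, and *Rbfox1* in *Mov10* Deletion replicate 1, with 14.

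Genes with a member held the seed match in their 3′UTR more often than other genes. In the 3′UTR of the representative GENCODE transcript, CTCAGGG was present in 30.1% of WT member genes (307 of 1019), 24.8% and 26.7% of *Mov10* Deletion member genes and 14.5% of all 20098 genes with a 3′UTR. Genes with clusters of other miRNAs only had it in 18.3%, 18.8% and 19.2%. The 3′UTRs of member genes were also longer, with a median of 2427, 2386 and 2285 nt against 1831, 1740 and 1939 nt, and the part of length in this difference was not tested. Of the genes with a member in all 3 libraries, 35.4% (62 of 175) held CTCAGGG, and of those with a member in both *Mov10* Deletion libraries but not WT 18 of 90 did.

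The genes described next were chosen for their scores, most of them for a high lowest score over all 3 libraries, so that their presence in every library is no finding. Scores are given in the order WT, *Mov10* Deletion replicate 1 and replicate 2.

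In *Vash1*, whose product removes the terminal tyrosine of tubulin, the site lay in coding sequence (chr12:86688932-86689007, plus strand, mm10) with scores of 70.6, 30 and 18.8. The AGO2 log2 there was 5.37, 5.77 and 5.28. *Bach2*, a transcriptional repressor, had its site in the 3′UTR (chr4:32580605-32580722, plus strand) with scores of 81.7, 54.8 and 17.9 and AGO2 log2 values of 6.76, 6.43 and 5.22. It held only the shifted match, with the other letters as printed above. In both genes all 3 libraries were enriched in AGO2, and the score was lowest in *Mov10* Deletion replicate 2, which had the shortest list.

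*Sox11*, a transcription factor of differentiating neurons, carried 9 sites along its single-exon 3′UTR, all listed in WT and 5 and 3 of them in *Mov10* Deletion. The strongest (chr12:27337283-27337406, minus strand) scored 69.1, 45.8 and 18.8, and a further site (chr12:27335268-27335395) with CTCAGGG scored 23.0, 14.9 and 6.0. Although the scores were high, AGO2 log2 at the strongest site was 2.08, 1.88 and 1.52, below the limit for an enriched cluster in every library.

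*Zfp281*, a zinc finger transcription factor of pluripotent cells, had 6 sites in its coding sequence and 3′UTR, of which 5 held a match. The 3′UTR site (chr1:136628346-136628401, plus strand) scored 32.7, 14.1 and 7.18, and the coding site printed above (chr1:136625930-136626011) scored 20, 13.3 and 10.9. AGO2 was enriched at both in all libraries, with log2 values of 3.66, 3.12 and 3.80 and of 3.73, 3.97 and 3.95.

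*Nova1*, a splicing factor of neurons, was bound in an intron. Its 7 sites (within chr12:46707552-46708555, minus strand) all held CTCAGGG, up to 4 times in a cluster, and 4 of them shared the 29 nt printed above letter for letter. The strongest scored 44.4, 43.6 and 10.6 with AGO2 log2 values of 2.45, 2.67 and 2.78. Since the repeats are nearly identical, how reads were divided among these sites is uncertain.

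Among the others, *Ank2*, the scaffold protein ankyrin-B, scored 34.7, 27.9 and 16.0 at a coding site (chr3:126934522-126934652, minus strand). *Ist1*, a factor of the ESCRT membrane machinery, scored 44.0, 31.5 and 9.95 in its 3′UTR (chr8:109671775-109671880, minus strand), with AGO2 log2 values of 3.70, 5.63 and 6.11. *Arfgef3*, of the ARF exchange factor family, scored 23.7, 33.8 and 18 in its 3′UTR (chr10:18588552-18588670, minus strand). *Trip12*, a ubiquitin ligase, scored 11.4, 10.7 and 10 at a coding site (chr1:84732026-84732109, minus strand). *Cpsf6*, a factor of pre-mRNA 3′ end processing, scored 30.5, 34.8 and 8.26 in its 3′UTR (chr10:117348920-117349091, minus strand). *Arfgef3* and *Cpsf6* were thus highest in a *Mov10* Deletion library and the other 3 in WT. In *Ifrd2*, whose product binds inactive ribosomes, replicate 2 gave 20 and WT 4.0 at a 3′UTR site, and replicate 1 listed no member.

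**Figure D5:**
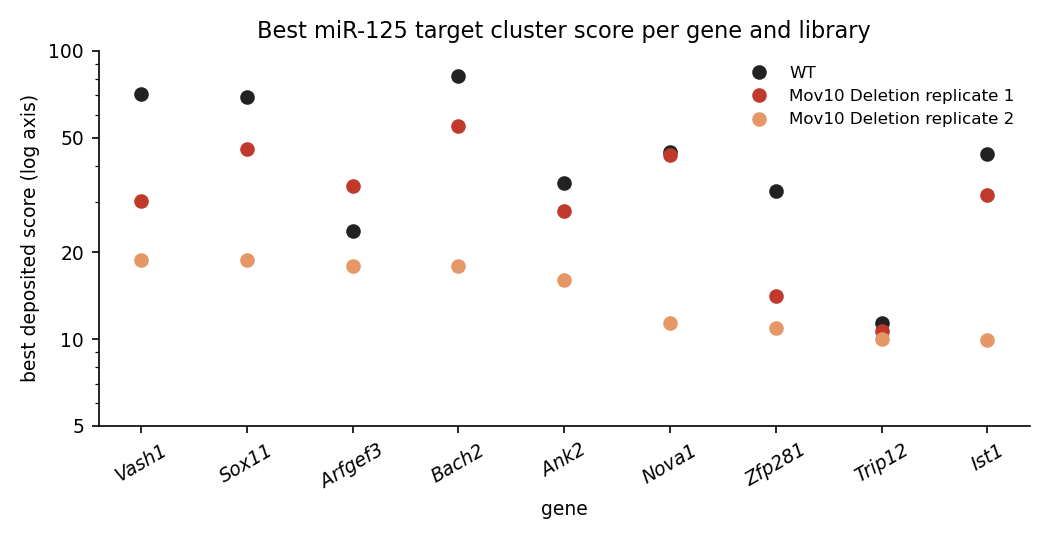
Best deposited score of a member (y axis, log axis, no unit given) in each library for the 9 genes with a member in all 3 libraries and the highest lowest score, *Rn18s-rs5* left out. WT lies at or above replicate 1 in 8 of the 9 genes, *Arfgef3* excepted, and replicate 2 is lowest in all 9.

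The long noncoding RNA *Cdr1os* on chromosome X was named after its values were seen, since no RefSeq gene with a strand covered it. Its exon held 10 sites with 8, 5 and 4 in the respective libraries, and the strongest (chrX:61183601-61183805, plus strand, mm10) scored 97.6, 48.7 and 18.5. AGO2 log2 there was 4.81, 4.12 and 4.62. None of the 10 held any of the 6 motifs, which says only that these letters are not in those windows.

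Of 32 genes reported elsewhere as miR-125 targets, 17 had a target cluster of any miRNA in WT and 10 had a member, against the 17.5% of all such genes given above. In *Mov10* Deletion it was 8 of 18 genes and 5 of 16, against 18.2% and 12.3% of all such genes. In 22 of the 32 the 3′UTR held CTCAGGG, against 14.5% of all genes with a 3′UTR. The list was chosen with earlier results of these data known.

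*Klf13*, a Krüppel-like transcription factor, *Mcl1*, an anti-apoptotic BCL2 relative, and *Arid3a*, a DNA-binding protein of the ARID family, had members in all 3 libraries. *Klf13* scored 22.1, 10.3 and 5.15 at a 3′UTR site (chr7:63889374-63889426, minus strand) with AGO2 log2 values of 4.56, 5.42 and 5.84. *Mcl1* scored 10.1, 7.33 and 3.50 (chr3:95662948-95663031, plus strand) with AGO2 log2 values of 2.93, 2.77 and 1.60. In *Arid3a* the libraries named 5 different sites, none shared, 3 of which held a match.

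*Lin28b* was a member in WT only, at a 3′UTR site (chr10:45378793-45378906, minus strand) with a score of 3.62, near the lowest score listed. AGO2 clusters covered the site in all 3 libraries with log2 values of 2.97, 2.80 and 2.52. *Lin28a* and *Trim71* had no target cluster of any miRNA. Of the 12 genes of the LIN28 and let-7 axis, 7 had a cluster of some miRNA in each library. Of these, 4 had a WT member, 2 had one in replicate 1 and 0 in replicate 2. The shares over all genes with a cluster of any miRNA were 17.5%, 18.2% and 12.3%, and with so few genes the counts were not compared between libraries. *Dicer1*, which cuts miRNA precursors, scored 5.0 in both WT and replicate 1 at a site without a match. *Tut4*, a uridylating enzyme that acts with LIN28, scored 3.77 in WT and 9.0 in replicate 1 at different sites, and *Dis3l2*, the nuclease that degrades uridylated let-7 precursors, scored 3.83 in WT.

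No other reported target scored over 8.0, the best score of *Grin2a* in replicate 1. *Grin2a*, a subunit of the NMDA receptor, had 7 sites over its 3′UTR and introns, 1 of them in WT and replicate 1 (scores of 5.76 and 3.67). *Ets1*, a transcription factor, scored 5.14 in WT and 3.0 in replicate 2. *Dlg4*, the synaptic scaffold PSD-95, scored 4.94, the kinase gene *Mknk2* 5.08, *Map3k11* 3.14 and the phosphatase gene *Dusp6* 4.0, all in WT alone. *Map3k10* scored 4.82, *Itch* 3.0 and *Igf2* 4.0 in replicate 1 alone. *Bcl2*, which blocks apoptosis, had no site in WT and 4 in *Mov10* Deletion, 3 adjoining ones in replicate 1 and 1 elsewhere in replicate 2. None of the 4 held a match, and the best scores were 6.41 and 3.86.

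Of 16 genes of the p53 network reported for miR-125b, 9, 11 and 8 had a target cluster of any miRNA in the respective libraries, and 2, 2 and 3 of these had a member, against 17.5%, 18.2% and 12.3% over all genes. *Prkra*, a partner of Dicer, was a member in all 3 libraries and scored 5.43, 7.0 and 3.0 at its 3′UTR site (chr2:76629957-76630031, minus strand). *Trp53inp1*, a p53-induced gene, scored 12 in WT at the 3′UTR site printed above and 3.0 in replicate 2 at another site without a match. *Ppp2ca* scored 3.0 in replicate 2, and *Itch* stands above. *Trp53* and *Bak1* had no member, and a cluster of another miRNA in replicate 1 only.

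Among 10 genes linked to FMRP and the synapse, 8, 9 and 5 had a target cluster of any miRNA, and 4, 3 and 1 of these had a member. Over all genes with a target cluster of any miRNA, 17.5%, 18.2% and 12.3% had a member. *Dlg4* and *Grin2a* of this list are also among the reported targets above. Fewer of the 10 genes had any target cluster in replicate 2. *Ago2* itself had 2 sites in its 3′UTR, with scores of 11.8 in WT and 5.09 in replicate 1 at the first (chr15:73104254-73104370, minus strand) and 7.94 in WT at the second. *Grin2b* had 6 sites, each in a single library, with scores of 3.0 to 5.39. *Fmr1*, *Fxr1*, *Fxr2*, *Cyfip1* and *Cyfip2* had no member.

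Of the miR-125 host transcripts, *Mir99ahg* scored 7.70 in WT and 3.82 in replicate 2 at different sites, and *Mir100hg* 3.44 in replicate 2 at a cluster that overlaps the end of the *Mir125b-1* hairpin.

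*Mov10* had no target cluster of any miRNA, so its own transcript could not be followed here. *Numa1*, which encodes the spindle pole protein NuMA, had a member in WT alone, in its 3′UTR (chr7:102014785-102014835, plus strand, mm10) with a score of 3.63 and the seed match printed above. AGO2 was present at this site in every library. Its log2 of IP over input was 2.98 in WT and 5.23 and 3.19 in *Mov10* Deletion, with −log10 p values of 4.50, 16.2 and 7.85. The chimeric cluster naming miR-125 was thus not listed in either *Mov10* Deletion library, while the AGO2 clusters there had higher log2 values than in WT. Replicate 2, the shortest list, had no target cluster of any miRNA in *Numa1*, so it says nothing particular to miR-125. The WT score was near the lowest score listed, so absence elsewhere can reflect that limit. With 1 WT library this difference has no replicate check.

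The genes with a member in WT alone and the highest scores were *Kbtbd11* (14.8), *Dennd6a* (13.8), *Vat1* (12.9) and *Rnf113a2* (12.8), the last within *Bbof1*. Their AGO2 log2 values show different courses. *Vat1*, a vesicle membrane protein gene, had 4.83, 3.67 and 3.25 and was enriched in every library. *Kbtbd11* had 3.22, 3.18 and 3.06, but with −log10 p values of 2.07, 6.92 and 2.41 only replicate 1 reached the limit for an enriched cluster. *Dennd6a*, of a family that activates RAB proteins, had 3.80 in WT and 1.28 and 0.25 in *Mov10* Deletion. *Rnf113a2* had 2.56, 2.38 and 1.25, with −log10 p values of 1.11, 1.24 and 0.298, under the limit in every library.

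In the opposite pattern, a member in both *Mov10* Deletion libraries and none in WT, the highest lower scores were in *Nnat*, *Cacna1b*, *Dnmt3a*, *Ttc28* and *Ash1l*. *Nnat*, an imprinted gene for a membrane proteolipid, scored 8.94 and 9.02 at a coding site without a match (chr2:157560214-157560264, plus strand). *Cacna1b*, the N-type calcium channel, scored 14 and 8.80 in its 3′UTR (chr2:24605422-24605505, minus strand), where the cluster held CTCAGGGA and WT had no AGO2 cluster. The AGO2 log2 there was 2.67 in replicate 1 and 1.03 in replicate 2, with −log10 p values of 2.78 and 0.650. Neither library thus reached the limit for an enriched cluster at this site. *Ash1l*, a histone methyltransferase, scored 9.97 and 6.72 at a 3′UTR site without a match. *Dnmt3a*, a DNA methyltransferase, and *Ttc28* had no site in common between the replicates. Of the 5 genes, 3 thus rested on the same site in both replicates, with identical coordinates. Since these clusters may have been called together, this was not taken as 2 independent observations.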

How the data were processed

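AGO2 chimeric eCLIP of P0 mouse brain was analysed from deposited clusters of 3 IP libraries. The inputs entered only through the IP over input values. Per the methods and the submitters' processing notes, the authors handled molecular identifiers with UMI-tools 1.1.1, trimmed with cutadapt 3.2, removed repeats, mapped to mm10 with STAR 2.7.7a, and matched miRNAs to unmapped reads with Bowtie 1.2.3. For AGO2 clusters the authors deposited a fold of IP over input as log2 and its p-value as −log10, which stops at 400, and for target clusters a miRNA and a score that is not defined in the sources used here. Read depth is unknown.

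Overlap was at least 1 nt on the same strand. Genes were 45311 of 49997 RefSeq genes (GRCm38.p6) with a strand from RefSeq or, by symbol, GENCODE vM39. No mm10 sequence was used. Start-site sequences of 300 nt from RefSeq (GRCm38.p6) were searched in GRCm39, and a cluster was placed, with 60 nt to either side, only where the nearest on each side had the same spacing in both builds (49220 of 53496 coordinates, 92.0%). Features are those of GENCODE vM39 at the GRCm39 midpoint of the placed cluster. The GRCm39 position was the mm10 position shifted by the offset of the flanking start-site sequences. AGO2 clusters counted as enriched where both values reached 3, and alternatives are in the closing section. Intervals are exact Clopper-Pearson 95% intervals (scipy 1.17.1, python 3.11.15, pandas 2.3.3). Overlap, merging and motif search were tested on simulated data.

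Members, lists and named genes were chosen with earlier results of these data known. Named were the genes of the lists with a member, the 5 genes of highest score in each library, the 10 of highest lowest score in all 3, the 5 of highest score in WT only and in both *Mov10* Deletion libraries only, *Numa1* and *Mov10*.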

Additional observations from a re-analysis of the deposited data

Results flagged for a closer look

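Some related miRNAs that did not define the members had target clusters of their own. In the *Mov10* Deletion libraries, though not in WT, their numbers were over the 3 that a count of 0 allows. miR-351-5p, which has the seed of miR-125 and differs after it, had 15 and 6 target clusters in replicates 1 and 2 of *Mov10* Deletion, and WT listed 2. The other arm of the *Mir125b-1* hairpin, miR-125b-1-3p, had 8 and 4 in *Mov10* Deletion replicates 1 and 2 and 0 in WT. The other arm of *Mir125b-2*, miR-125b-2-3p, had 8 and 4 and, in WT, 3. In replicate 2, 1 coordinate of each of these miRNAs also named miR-125, as did 1 of miR-125b-2-3p in WT. Their difference between genotypes was not tested, since WT was 1 library. The lists held 22074 lines in WT and 30526 and 13468 in *Mov10* Deletion replicates 1 and 2. The other arm of *Mir125a*, miR-125a-3p, had 1 target cluster in replicate 1 and 0 in WT and replicate 2.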

How the results depend on the processing

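Over 30 results and 99 alternatives, 51 values stayed within the interval of the value reported, or for counts within 1.5 times. Leaving out *Rn18s-rs5*, added after the data were seen, gave 15 such values of 15. In the order WT, *Mov10* Deletion replicate 1 and replicate 2, the share naming miR-125 was 6.46%, 6.09% and 5.90% with each line counted. It was 6.38%, 6.20% and 5.90% over coordinates that name 1 miRNA, with miR-125a-5p and miR-125b-5p counted as 1. Of members scoring at least 4, the share of WT members found in replicates 1 and 2 was 43.8% and 22.2%, that of replicate 1 found in WT and replicate 2 was 34.0% and 15.2%, and that of replicate 2 found in WT and replicate 1 was 38.6% and 33.3%. The same minimum left 699, 854 and 368 genes, 96 in all libraries, 339 in WT only and 43 in both *Mov10* Deletion libraries only, where it drops the lowest scores by construction. Without replicate 1, WT and replicate 2 shared 277 genes, with 841 in WT only and 388 in replicate 2 only. Without replicate 2, WT and replicate 1 shared 529, with 589 in WT only and 881 in replicate 1 only. Members on enriched AGO2 clusters were 15.5%, 12.7% and 9.07% at a −log10 p of 5, 30%, 21.7% and 16.1% at a log2 of 2, and 12.6% in replicate 1 with 50% of the cluster covered. The gene end gave 10.7%, 7.35% and 8.43% at 500 nt and 37.0%, 25.1% and 27.3% at 2000 nt. Member genes with a match in the 3′UTR were 12.7%, 10.1% and 11.3% for 8 letters and 58.7%, 52.7% and 54.0% for 6. The following alternatives were also added after the data were seen. With a score of at least 4, introns held 9.60% of WT and 25.1% of replicate 1 members, and matches were in 69.3%, 49.9% and 51.0%. With no other miRNA named, introns held 35.6% in replicate 1 and matches were in 68.2% in WT. The intron share stayed lower and the match share higher in WT than in both *Mov10* Deletion libraries under each. No paired analysis was possible because WT has 1 replicate. The cause of these moves was not tested, and unknown depth limits every comparison of list lengths.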
